A study of Homo sapiens with 6 samples.

Results

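The genes described here are 4 receptor genes, HTR7, SORCS2, CALCR and KDR, and the myosin gene MYH14, which make 5 of the 16199 rows of a count table from human embryonic stem cells. They were taken by symbol, and they had been chosen on their counts in these libraries, which differed between Dicer genotypes with replicates that ran the same way. HTR7 and SORCS2 were taken as lower and CALCR and KDR as higher in S1344L mutants, and MYH14 as low in hemizygous cells. The values behind the choice are given below as a description, with no test.

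Libraries came from H1, an established human embryonic stem cell line, in 3 genotypes of Dicer, the enzyme that cuts microRNA precursors: S1344L hemizygous, which the protocol writes as pm/fs, S1344L homozygous (pm/pm), and wild-type. S1344L is a substitution of Dicer that the series title calls a hotspot, and the mutant cells were made with CRISPR-Cas9. All 3 genotypes, wild-type included, had grown for 10 days without doxycycline and were crosslinked by 2 exposures to 254 nm light (150 mJ/cm2 each). The RNA read out is what an Ago2 antibody pulled down by iCLIP, Ago2 being the Argonaute protein that carries microRNAs. Each genotype had 2 libraries, from 2 dishes of 15 cm per sample, and nothing in the labels says whether these were separate cultures or how many clones a genotype stands for, so p-values measure the spread between libraries alone.

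The 5 genes act in unrelated settings. HTR7 encodes a serotonin receptor that couples to Gs and raises cAMP. SORCS2 is a sorting receptor of the VPS10P family, which binds proneurotrophins together with NGFR. CALCR is the calcitonin receptor, a class B G protein-coupled receptor whose ligand preference shifts when a RAMP protein joins it. KDR (VEGFR2) is the main signalling receptor for VEGFA and is known for its role in mesoderm and blood vessels. MYH14 encodes a heavy chain of nonmuscle myosin II, the motor that contracts actin filaments, alongside the heavy chains MYH9 and MYH10.

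In RefSeq (GRCh38.p14, the assembly behind hg38) HTR7 lies on chromosome 10 at chr10:90740823-90858039 and KDR on chromosome 4 at chr4:55078481-55125595, and no other annotated gene overlaps either. SORCS2 lies at chr4:7192538-7742827, CALCR at chr7:93424486-93574724 and MYH14 at chr19:50203622-50310540. SORCS2 is overlapped by 7 annotated genes, CALCR by 3 and MYH14 by 1, and none of these has a row in the count table. Both SORCS2 and CALCR hold microRNA genes within their bounds, MIR4798 and MIR4274 in SORCS2 and MIR489 and MIR653 in CALCR. A microRNA hairpin overlaps 747 (5.71%) of the 13090 protein-coding genes of the table. The mature products of these 4 microRNA genes that the RefSeq table lists are given below. Their sequences are shown because Dicer makes them from the same stretches of genome as 2 of the receptor genes, with the seed, bases 2 to 8, in capitals.
hsa-miR-489-3p: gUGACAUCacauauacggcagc
hsa-miR-653-5p: gUGUUGAAacaaucucuacug
hsa-miR-653-3p: uUCACUGGaguuuguuucaaua
hsa-miR-4798-5p: uUCGGUAUacuuugugaauugg
hsa-miR-4798-3p: aACUCACGaaguauaccgaagu
hsa-miR-4274: cAGCAGUCccucccccug
The MIR489 and MIR653 products lie on the minus strand, as does CALCR. The 6 seeds differ from each other, and no other of the 2370 mature names in the RefSeq table carries any of them. The count table has 0 rows for these 4 microRNA genes, so the host genes' counts say nothing of the mature products.

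Promoter sequence was available for 4 of the 5 genes and is shown for HTR7, which was lower in mutants, for CALCR and KDR, which were higher, and for MYH14. Each line gives the 250 bases before the annotated start on the gene's own strand, with the GC box motif GGGCGG, the CCAAT motif and the reverse complement of each in capitals.
HTR7 promoter: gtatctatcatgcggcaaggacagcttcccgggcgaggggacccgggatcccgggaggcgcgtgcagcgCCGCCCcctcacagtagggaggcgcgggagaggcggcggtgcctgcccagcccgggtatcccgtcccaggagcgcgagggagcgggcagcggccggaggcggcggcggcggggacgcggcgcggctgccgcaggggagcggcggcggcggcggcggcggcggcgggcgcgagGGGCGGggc
CALCR promoter: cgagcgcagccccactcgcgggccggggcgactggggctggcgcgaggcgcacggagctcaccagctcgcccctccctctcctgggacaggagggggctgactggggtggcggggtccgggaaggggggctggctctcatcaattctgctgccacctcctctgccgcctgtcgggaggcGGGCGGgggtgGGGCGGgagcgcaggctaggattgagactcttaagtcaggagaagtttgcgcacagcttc
KDR promoter: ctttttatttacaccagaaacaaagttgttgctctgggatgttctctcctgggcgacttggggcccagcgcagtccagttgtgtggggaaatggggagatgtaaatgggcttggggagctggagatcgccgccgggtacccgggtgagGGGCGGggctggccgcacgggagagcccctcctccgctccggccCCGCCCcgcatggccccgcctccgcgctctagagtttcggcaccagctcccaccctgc
MYH14 promoter: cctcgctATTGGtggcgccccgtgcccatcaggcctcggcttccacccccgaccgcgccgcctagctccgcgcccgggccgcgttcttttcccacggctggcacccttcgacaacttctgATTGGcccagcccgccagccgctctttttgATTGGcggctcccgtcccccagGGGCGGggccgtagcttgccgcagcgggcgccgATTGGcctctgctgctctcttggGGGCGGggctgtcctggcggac
These stand at chr10:90858040-90858289, chr7:93574725-93574974 (the first of 2 CALCR starts in the table), chr4:55125596-55125845 and chr19:50203372-50203621. GGGCGG, searched on both strands, occurred 2 times in each, and 42.6% of the 35116 promoters of this length hold it. CCAAT, also on both strands, occurred 4 times before MYH14 and 0 times in the other 3 windows shown, against 32.0% of all promoters with a match. The second CALCR start, chr7:93559811-93560060, has 0 GGGCGG, 1 CCAAT and 34.0% G and C in its window. TATAAA matched in none of the 4 shown, and in 10.7% of all. G and C made up 81.2% of the HTR7 window, 70.8% for CALCR, 65.2% for KDR and 71.6% for MYH14, and the median over all promoters was 58.0%.

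Libraries held 38.2 M to 52.9 M counts. All 12 pluripotent stem cell markers on the list had counts, with a summed level of 10794 to 11909 CPM in hemizygous, 10417 to 10955 in homozygous and 10159 to 10580 in wild-type libraries, where CPM are counts scaled to a common library total with TMM factors. DICER1 stood at 118 and 96.4 CPM in hemizygous, 129 and 118 in homozygous, and 169 and 126 in wild-type libraries. Both hemizygous libraries were below both wild-type libraries, and the homozygous ones overlapped them. The count does not show the substitution itself. The edgeR quasi-likelihood test over all genes called 0 genes at an adjusted p under 0.05 in each of the 3 comparisons, so the share called was 0.00% in every direction. At an unadjusted p under 0.05 there were 141 genes for hemizygous against wild-type, 435 for homozygous against wild-type and 124 for homozygous against hemizygous. These counts hang on single libraries, with 72 without hemizygous replicate 1 and 1348 without hemizygous replicate 2 in the last comparison. DESeq2 called 7, 10 and 10 genes in these comparisons, and limma-voom called 0. Whether a count follows Ago2 binding or the amount of transcript cannot be read from the table, and in such bulk samples fewer cells with a transcript and less RNA per cell cannot be told apart.

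HTR7, the serotonin receptor, was at 9.26 and 13.5 CPM in hemizygous replicates 1 and 2 and at 8.02 and 8.99 CPM in homozygous ones. Both wild-type libraries stood at 25.5 and 25.6 CPM, so every mutant library was below both, by a factor of 1.89 at the nearest. The means were 0.445 of wild-type in hemizygous and 0.332 of wild-type in homozygous cells, with fitted log2 values of -1.16 (SE 0.21) and -1.59 (SE 0.22). The same order, all 4 mutant libraries below both wild-type libraries, was found in 742 genes, 4.58% of the table, and 4 of these, HTR7 included, had a gap between the nearest libraries as wide as that of HTR7. Against wild-type alone, hemizygous libraries were lower without overlap in 9.21% and homozygous libraries in 13.6% of all genes. With 355 to 1324 counts behind each value, the exact Poisson intervals (95%, counting error only) reached 14.6 CPM at most in mutants and 24.1 CPM at least in wild-type. Here and below these intervals leave out the spread between libraries. They test no difference between genotypes, on which the genes were chosen. Hemizygous replicates differed more than the others, with replicate 1 at 0.684 of replicate 2, against 0.893 in homozygous and 0.996 in wild-type cells.

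SORCS2 was the least abundant of the 5 by counts, with 36 to 153 per library. Its level was 1.85 and 1.42 CPM in hemizygous, 0.903 and 0.886 CPM in homozygous, and 2.95 and 2.07 CPM in wild-type libraries. The groups do not overlap, but hemizygous replicate 1 and wild-type replicate 2 lie close, a factor of 1.12 apart. Their Poisson intervals overlap, at 1.45 to 2.34 CPM in the hemizygous and 1.65 to 2.58 CPM in the wild-type library, so these libraries are not told apart beyond counting error. The homozygous intervals end at 1.23 CPM, below those of wild-type. The means were 0.652 of wild-type in hemizygous and 0.356 in homozygous cells, or -0.62 (SE 0.31) and -1.49 (SE 0.32) as log2 fold changes, and the hemizygous one was -0.34 without wild-type replicate 1. Of the 742 genes with all mutant libraries below wild-type, 119 had at least the gap of SORCS2. Replicate 1 was above replicate 2 by 0.37 in hemizygous, 0.03 in homozygous and 0.50 in wild-type cells (log2).

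CALCR, the calcitonin receptor, was at 6.49 and 8.18 CPM in hemizygous and at 10.0 and 9.55 CPM in homozygous libraries. In wild-type it stood at 3.72 and 5.04 CPM, below every mutant library. The means were 1.67 times wild-type in hemizygous and 2.24 times in homozygous cells, and the fit gave 0.75 (SE 0.24) and 1.16 (SE 0.24) on the log2 scale. All 4 mutant libraries lay above both wild-type libraries in 695 genes, 4.29% of the table, and 38 of them had a gap as wide as that of CALCR, a factor of 1.29. Against wild-type alone, hemizygous libraries were higher without overlap in 8.13% and homozygous libraries in 14.2% of all genes.

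KDR, the VEGF receptor, had the most counts of the 5, from 10770 to 20687 per library. Its level was 333 and 393 CPM in hemizygous, 376 and 361 CPM in homozygous, and 257 and 276 CPM in wild-type libraries. The ratio of means was 1.36 in hemizygous and 1.38 in homozygous cells, with a factor of 1.21 between the nearest mutant and wild-type libraries, a gap matched or passed by 73 of the 695 genes. The SE of the log2 fold change was 0.14 in both comparisons. Counting error was small beside it, with Poisson intervals of 327 to 338 CPM in hemizygous replicate 1 and 270 to 281 CPM in wild-type replicate 2.

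MYH14 had another order. It stood at 31.8 and 37.1 CPM in hemizygous libraries, at 67.1 and 63.2 CPM in homozygous libraries and at 54.5 and 70.6 CPM in wild-type libraries. Both hemizygous libraries were below the other 4, by a factor of 1.47 at the nearest, and the homozygous values fall inside the wild-type range. The hemizygous mean was 0.551 of wild-type and the log2 fold change -0.86 (SE 0.17). This order held in 382 genes, 2.36% of the table, and 12 of them had at least the gap of MYH14.

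**Figure D1:**
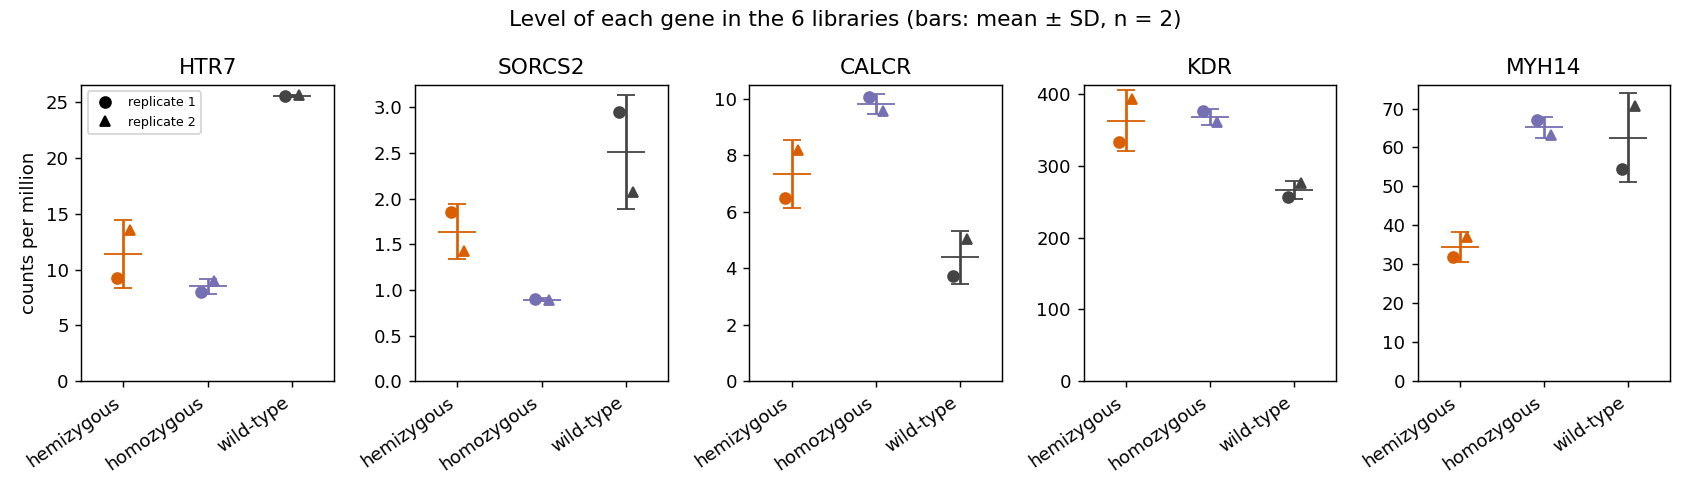
Level in CPM (y axis, from 0) of the 5 genes in hemizygous, homozygous and wild-type libraries (x axis); circles are replicate 1, triangles replicate 2, and bars the mean ± SD of 2 libraries. HTR7 and SORCS2 are lower and CALCR and KDR higher in all 4 mutant libraries, and MYH14 is low in the hemizygous libraries, at 31.8 and 37.1 CPM.

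Whether the 2 mutant genotypes differ was not named in the choice of the 4 receptor genes and was tested across all genes. SORCS2 was lower in homozygous than in hemizygous libraries without overlap, with a log2 fold change of -0.87 (SE 0.32). HTR7 had -0.42 (SE 0.21) and CALCR 0.42 (SE 0.24), also without overlap of the libraries, and KDR had 0.02 (SE 0.14) with overlapping libraries. None passed edgeR's quasi-likelihood test (adjusted p = 0.999 for all 4 genes), with unadjusted p = 0.0321 for SORCS2, 0.0878 for HTR7, 0.123 for CALCR and 0.873 for KDR. With a replicate block the same test gave 0.0104 for SORCS2, 0.0333 for HTR7, 0.0454 for CALCR and 0.796 for KDR. None passed there either (adjusted p = 0.573 for the first 3 and 0.938 for KDR), and 1328 genes had an unadjusted p under 0.05. Libraries of 3 of the 4 receptor genes did not overlap between these genotypes, against 21.4% of all genes (11.0% higher and 10.4% lower in homozygous libraries). The choice asked for replicates that agree, which favours such separation, so the receptor genes and all genes are not compared on equal terms. For the same reason the unadjusted p-values above, with and without the replicate block, can be too small. The homozygous level was the farther from wild-type for HTR7, SORCS2 and CALCR, but the sizes rest on single libraries. HTR7 had -0.12 without hemizygous replicate 2 and -0.67 without hemizygous replicate 1. CALCR had 0.26 without hemizygous replicate 1 and 0.59 without hemizygous replicate 2. For KDR the genotypes had no order, with -0.09 without hemizygous replicate 1 and 0.15 without hemizygous replicate 2. MYH14 was chosen as low in hemizygous cells alone, which favours a small difference between homozygous and wild-type cells. That log2 fold change was 0.06 (SE 0.17), and -0.11 without wild-type replicate 1, given as a description with no test. The libraries overlapped, where 27.9% of all genes had homozygous and wild-type libraries that did not.

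Differences were also taken between libraries of the same replicate number, a view added after seeing the data. For HTR7 the hemizygous difference from wild-type was -1.46 on the log2 scale in replicate 1 and -0.92 in replicate 2, and the homozygous difference -1.67 and -1.51. For SORCS2 the hemizygous differences were -0.66 and -0.53 and the homozygous ones -1.66 and -1.19. The hemizygous difference of HTR7 was thus the larger in replicate 1. CALCR had 0.80 and 0.69 in hemizygous, and 1.42 and 0.92 in homozygous cells. KDR had 0.37 and 0.51 in hemizygous, and 0.55 and 0.39 in homozygous cells. MYH14 had -0.78 and -0.93 in hemizygous cells, and 0.30 and -0.16 in homozygous cells. For the comparisons the genes were chosen on, the signs are fixed by the choice, and only the sizes are given here.

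The surroundings of the genes on the chromosomes were not used in choosing them. Around MYH14, 59 measured genes lie within 1 Mb on either side. In 9 of them (15.3%) both hemizygous libraries were below the other 4 libraries, where 2.36% of all genes and 4.26% of the 1080 genes of chromosome 19 show this order. Homozygous libraries were above both hemizygous libraries in 20 of the 59 (33.9%), against 11.0% of all genes and 19.6% of chromosome 19. The window was set after the data were seen, and the share falls with its width, from 26.7% at 0.5 Mb to 8.87% at 2 Mb.

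The low values stood together in a run of 16 measured genes from IZUMO2 to CLEC11A, chr19:50152548-50725708, whose bounds were also set after the values were seen. Of the 15 genes beside MYH14 in it, 11 had a hemizygous log2 fold change below -0.5, with a median of -1.0 and a range of -1.5 to -0.60. Both hemizygous libraries were below the other 4 in 8 of the 11, and they overlapped wild-type in IZUMO2, LRRC4B and SHANK1. Some values rest on few hemizygous counts, 12 and 18 for JOSD2, which had the -1.5, and 16 and 28 for NAPSA. Outside the run, 0 of the other 44 neighbours were below -0.5, which follows from where the bounds were set. Of all genes, 218 (1.35%) were below -0.5. In homozygous cells the same 11 genes had a median of 0.10 against wild-type, with a range of -0.17 to 0.49. The 4 genes of the run that were not below -0.5 lie inside it, between NAPSA and GARIN5A: NR1H2, POLD1, SPIB and MYBPC2. In NR1H2, SPIB and MYBPC2 homozygous libraries were still above hemizygous ones without overlap, as in 11.0% of all genes, and in POLD1 they overlapped.

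EMC10, a subunit of the membrane protein complex of the endoplasmic reticulum, was at 59.8 and 46.0 CPM in hemizygous, 99.5 and 92.8 CPM in homozygous, and 84.8 and 89.2 CPM in wild-type libraries. The hemizygous libraries were the lowest and the homozygous the highest, with no overlap. SYT3, a synaptotagmin, was at 3.23 and 4.55 CPM in hemizygous, 7.20 and 7.95 CPM in homozygous, and 5.71 and 9.98 CPM in wild-type libraries. CLEC11A, a secreted growth factor of the C-type lectin family at the end of the run, was at 1.77 and 3.23 CPM in hemizygous, 4.10 and 7.46 CPM in homozygous, and 4.42 and 7.70 CPM in wild-type libraries. In both, every hemizygous library was below the other 4. POLD1, the catalytic subunit of DNA polymerase delta, lies inside the run and was at 75.1 and 85.9 CPM in hemizygous, 97.4 and 80.8 CPM in homozygous, and 86.9 and 98.4 CPM in wild-type libraries. NR1H2, a nuclear receptor for oxysterols, had 44.8 and 59.6 CPM in hemizygous, 62.3 and 66.8 CPM in homozygous, and 37.5 and 43.9 CPM in wild-type libraries, with all mutant libraries above wild-type. That order held in 2 of the 59 neighbours of MYH14 (3.39%), against 4.29% of all genes.

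None of the 11 genes passed edgeR's quasi-likelihood test for hemizygous against wild-type (adjusted p = 1.00). Of the 11, 8 had an unadjusted p under 0.05, as did 141 of all 16199 genes. The 11 were picked on the fold change of this same comparison, so the 8 are a description and no test of the run. Between the mutant genotypes DESeq2 called EMC10 (adjusted p = 0.0181, log2 fold change 0.86 by edgeR), which edgeR did not (adjusted p = 0.999). Of all 15 genes beside MYH14 in the run, 12 had a hemizygous difference from wild-type below 0 within replicate number 1 (median -0.81) and 14 within number 2 (median -0.88), the bounds of the run having been set on the same libraries. Annotated bounds overlap between GARIN5A and EMC10, between SYT3 and C19orf81 and between C19orf81 and SHANK1, so reads of these pairs could be counted for either gene. MYH14 overlaps none of the measured genes. The cause of the low counts was not tested.

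**Figure D2:**
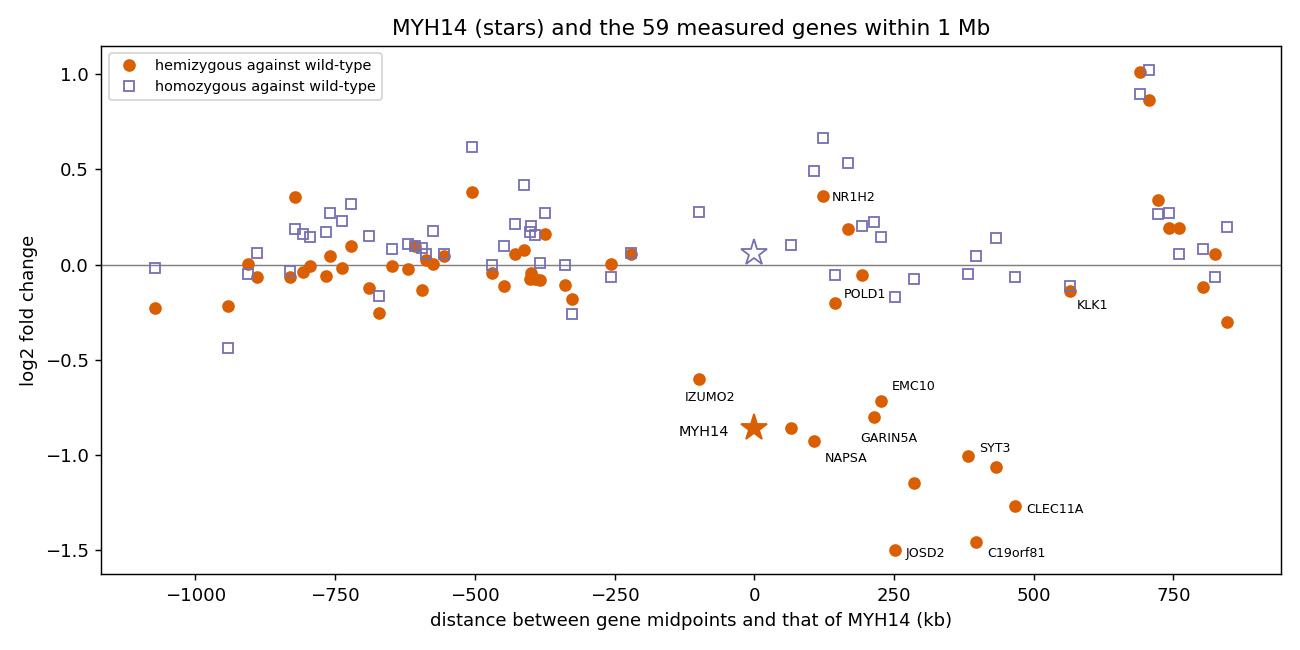
Log2 fold change (y axis) of MYH14, drawn as stars, and of the 59 measured genes within 1 Mb, by the distance between gene midpoints in kb (x axis); filled circles are hemizygous and open squares homozygous cells, each against wild-type. Hemizygous values of 11 neighbours lie between -1.5 and -0.60 in a run from IZUMO2 to CLEC11A, while the homozygous values of these genes lie between -0.17 and 0.49.

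The neighbours of the 4 receptor genes were read in the same way. HTR7 had 6 measured neighbours within 1 Mb, with a median log2 fold change of 0.04 in hemizygous and -0.05 in homozygous cells. None of the 6 shared its order, which 4.58% of all genes had. RPP30, an RNase P subunit and the nearest to it, was at 35.8 and 39.9 CPM in hemizygous, 42.8 and 37.2 CPM in homozygous, and 38.4 and 36.8 CPM in wild-type libraries. CALCR had 12 neighbours, with a median of 0.03 in hemizygous and 0.00 in homozygous cells. In 1 of the 12 all mutant libraries were above wild-type, against 4.29% of all genes. This was TFPI2, an inhibitor of serine proteases, at 27.8 and 23.3 CPM in hemizygous, 25.4 and 23.2 CPM in homozygous, and 22.0 and 17.3 CPM in wild-type libraries.

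Around SORCS2, 15 of 20 measured neighbours had a hemizygous and 16 of 20 a homozygous log2 fold change below 0, with a median of -0.15 in hemizygous and -0.19 in homozygous cells. In 9 of the 20 the homozygous libraries were below both wild-type libraries, where 13.6% of all genes are. In 4 of the 20 all mutant libraries were, against 4.58% of all genes. CPZ, a secreted carboxypeptidase, was among these, at 1.85 and 2.85 CPM in hemizygous, 1.54 and 2.31 CPM in homozygous, and 3.24 and 4.94 CPM in wild-type libraries. HTRA3, a secreted serine protease, stood at 1.17 and 2.75 CPM in hemizygous, 0.705 and 1.72 CPM in homozygous, and 2.14 and 3.07 CPM in wild-type libraries, so its hemizygous libraries overlapped wild-type. None was called by edgeR.

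KDR lies beside KIT and PDGFRA, which encode receptor tyrosine kinases for stem cell factor and for platelet-derived growth factor. KIT was at 101 and 75.9 CPM in hemizygous, 92.5 and 73.0 CPM in homozygous, and 75.9 and 66.9 CPM in wild-type libraries. Hemizygous replicate 2 and wild-type replicate 1 were level, and homozygous and wild-type libraries overlapped. PDGFRA was at 2.48 and 1.48 CPM in hemizygous, 1.72 and 1.30 CPM in homozygous, and 1.16 and 0.870 CPM in wild-type libraries, with all mutant libraries above wild-type. On the log2 scale the hemizygous difference from wild-type was 0.95 (SE 0.37) for PDGFRA and 0.31 (SE 0.19) for KIT. The homozygous difference was 0.57 (SE 0.37) for PDGFRA and 0.21 (SE 0.19) for KIT. None was called by edgeR. TMEM165, a Golgi membrane protein, had the same order, at 95.1 and 99.8 CPM in hemizygous, 94.3 and 118 CPM in homozygous, and 92.2 and 91.2 CPM in wild-type libraries, so 2 of the 10 neighbours of KDR did, against 4.29% of all genes. Of the 10, 8 had a log2 fold change above 0 in each comparison, and the median was 0.10 in hemizygous and 0.09 in homozygous cells.

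**Figure D3:**
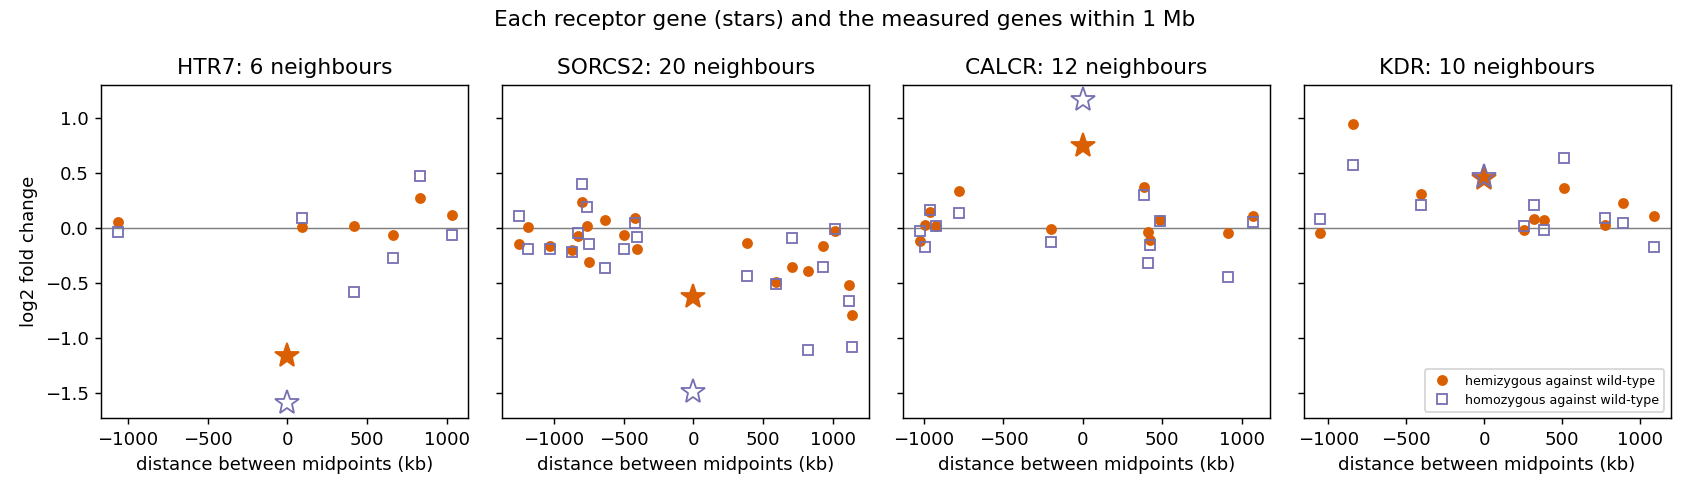
Log2 fold change against wild-type (y axis) of each receptor gene, drawn as stars, and of its measured neighbours within 1 Mb, by the distance between gene midpoints in kb (x axis); filled symbols are hemizygous and open ones homozygous cells. The receptor genes lie away from 0 because they were chosen on these values. Medians of the neighbours of HTR7 and CALCR lie between -0.05 and 0.04, and most of the neighbours of SORCS2 lie below 0.

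Genes with a similar course over the 6 libraries were sought among 14046 genes with a symbol and a mean of at least 1 CPM, by the root mean square difference of log2 CPM after each gene was centred on its own mean. For MYH14 the nearest 3 included SYT3 (0.17) and EMC10 (0.20), against 0.44 for the root mean square deviation of MYH14 itself from its mean. Both lie in the run of genes described above, SYT3 at 383 kb and EMC10 at 227 kb from MYH14 between midpoints, although position was not part of the measure. With a minimum of 5 CPM the nearest 3 were SYT3, EMC10 and GARIN5A, from the same run.

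The receptor genes had their nearest genes elsewhere. For KDR they were CENPQ (0.03), a centromere protein, GIN1 (0.06) and SEPTIN3 (0.07), a septin of neurons, against a deviation of 0.23 for KDR. CENPQ was at 22.3 and 25.0 CPM in hemizygous, 24.0 and 24.2 CPM in homozygous, and 17.2 and 18.2 CPM in wild-type libraries, with the same groups high and low as KDR. For CALCR they were SKOR2 (0.12), a transcriptional corepressor, the noncoding RNA LINC00174 (0.12), and the protocadherin PCDHGA6 (0.13), whose shared cluster exons make its count uncertain. For SORCS2 they were SLC16A12 (0.18), a transporter, DLGAP1-AS1 (0.19), an antisense RNA, and RND3 (0.22), which weakens actin contractility. RND3 was at 49.7 and 31.1 CPM in hemizygous, 17.3 and 24.5 CPM in homozygous, and 66.4 and 37.8 CPM in wild-type libraries. Its replicate 1 was above replicate 2 in hemizygous and wild-type cells, by 0.68 and 0.81 on the log2 scale, as in SORCS2. For HTR7 they were CPZ, IGFBP5, a binding protein of insulin-like growth factors, and GABRB2, a GABA receptor subunit, at 0.31, 0.31 and 0.33, against 0.69 for HTR7 itself. CPZ also lies near SORCS2, as given above.

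**Figure D4:**
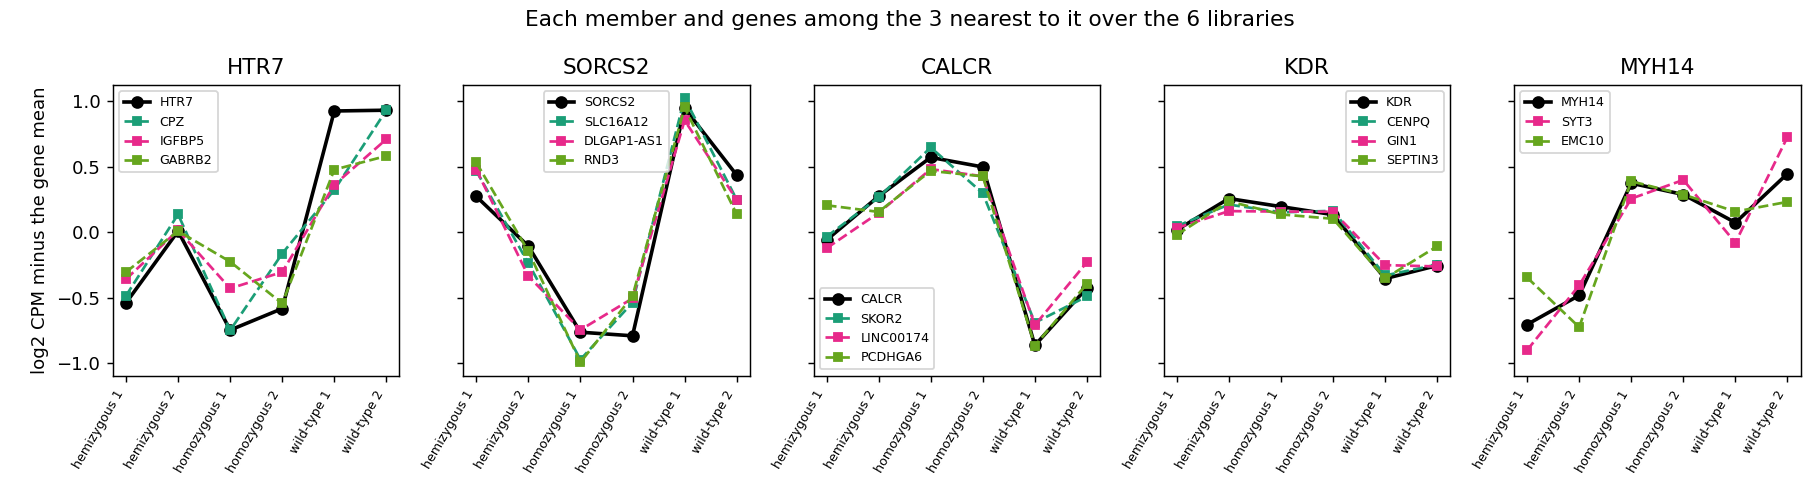
Log2 CPM minus the mean of the gene (y axis) of each of the 5 genes (black) and genes among the 3 nearest to it (dashed; 2 for MYH14, 3 for the others) in the 6 libraries (x axis). The root mean square difference from KDR was 0.03 to 0.07 for CENPQ, GIN1 and SEPTIN3. For the genes nearest to HTR7 it was 0.31 to 0.33.

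The other genes of each family were then read from lists. Over all genes the median log2 fold change was 0.00 in each comparison, and edgeR called 0 members of any list in either direction. Of 18 other serotonin receptor and enzyme genes, 9 were measured, with medians of 0.14 in hemizygous and -0.32 in homozygous cells, where 6 of the 9 were below 0. HTR1F, a Gi-coupled serotonin receptor, was the only one of the 9 (against 4.58% of all genes) with all mutant libraries below wild-type, at 0.939 and 0.930 CPM in hemizygous, 0.485 and 0.788 CPM in homozygous, and 1.43 and 1.36 CPM in wild-type libraries. HTR6, which like HTR7 couples to Gs, was at 1.23 and 1.48 CPM in hemizygous, 1.5 and 1.5 CPM in homozygous, and 1.45 and 1.97 CPM in wild-type libraries. Downstream of Gs, the 21 measured genes of the cAMP pathway had a median of 0.04 in hemizygous and -0.10 in homozygous cells. PRKAR1B, a regulatory subunit of protein kinase A, was the only one of the 21 (against 4.29% of all genes) above wild-type in all mutant libraries, by little, at 24.8 and 25.5 CPM in hemizygous, 24.2 and 24.3 CPM in homozygous, and 23.9 and 23.9 CPM in wild-type libraries. GNAS, the Gs alpha subunit, had a log2 fold change of -0.04 in hemizygous cells (SE 0.16) and 0.07 in homozygous cells (SE 0.16).

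Of the VPS10P receptors and neurotrophin partners, 8 of 12 were measured, with a median of 0.12 in hemizygous (7 of 8 above 0) and -0.02 in homozygous cells. None of the 8 shared the order of SORCS2, which 4.58% of all genes had. SORCS1 was at 15.0 and 12.1 CPM in hemizygous, 10.8 and 10.5 CPM in homozygous, and 12.6 and 10.9 CPM in wild-type libraries. SORCS3 was at 1.28 and 2.33 CPM in hemizygous, 1.65 and 2.41 CPM in homozygous, and 1.56 and 1.25 CPM in wild-type libraries, with overlap between hemizygous and wild-type. NGFR, the receptor that SORCS2 joins, stood at 32.0 and 28.1 CPM in hemizygous, 30.0 and 27.2 CPM in homozygous, and 28.2 and 29.9 CPM in wild-type libraries.

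In the calcitonin family 8 of 10 other genes were measured, with a median of 0.06 in hemizygous and 0.04 in homozygous cells. None of the 8 shared the order of CALCR, which 4.29% of all genes had. CALCRL, the related receptor for CGRP and adrenomedullin, had 2.63 and 1.97 CPM in hemizygous, 2.11 and 1.80 CPM in homozygous, and 2.82 and 1.77 CPM in wild-type libraries, all overlapping. RAMP1, which turns CALCR into an amylin receptor, had 1.83 and 1.78 CPM in hemizygous, 1.10 and 1.58 CPM in homozygous, and 1.18 and 1.38 CPM in wild-type libraries. Its hemizygous libraries were above both wild-type libraries, and the homozygous ones overlapped them. The ligand gene ADM, for adrenomedullin, varied between replicates, at 24.4 and 9.20 CPM in hemizygous, 15.4 and 7.95 CPM in homozygous, and 31.9 and 16.8 CPM in wild-type libraries.

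Of the VEGF genes 11 of 12 were measured, with a median of -0.05 in hemizygous and 0.00 in homozygous cells. None of the 11 shared the order of KDR, which 4.29% of all genes had. FLT1, which also binds VEGFA, stood at 180.0 and 142 CPM in hemizygous, 146 and 126 CPM in homozygous, and 156 and 155 CPM in wild-type libraries. FLT4, the receptor for VEGFC, stood at 21.1 and 30.5 CPM in hemizygous, 26.1 and 32.3 CPM in homozygous, and 21.4 and 31.5 CPM in wild-type libraries. The ligand VEGFA was at 58.6 and 60.6 CPM in hemizygous, 76.1 and 63.1 CPM in homozygous, and 65.7 and 65.1 CPM in wild-type libraries. PGF, a ligand of FLT1, was lower in all mutant libraries, at 3.86 and 4.63 CPM in hemizygous, 4.12 and 4.53 CPM in homozygous, and 4.69 and 5.07 CPM in wild-type libraries. SH2D2A, an adaptor that binds KDR, was lower in all mutant libraries too, at 3.05 and 3.97 CPM in hemizygous, 3.90 and 4.04 CPM in homozygous, and 4.28 and 4.60 CPM in wild-type libraries. That order held in 2 of the 11 VEGF genes, against 4.58% of all genes. Of 12 endothelial markers, 7 had rows. PECAM1 and CDH5, which define endothelium, had none, and the summed level of the 7 was 128 and 81.5 CPM in hemizygous, 82.1 and 77.5 CPM in homozygous, and 115 and 86.2 CPM in wild-type libraries. That sum was highest in replicate 1 of hemizygous and wild-type cells and did not follow KDR. Of 12 mesendoderm markers 4 had rows, TBXT and EOMES had none, and the sums were 8.84 and 10.6 CPM in hemizygous, 11.1 and 11.3 CPM in homozygous, and 8.83 and 8.24 CPM in wild-type libraries. The sum in hemizygous replicate 1 was level with wild-type and the other mutant sums were above it, PDGFRA is 1 of the 4, and their part in the KDR result was not tested.

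All 14 nonmuscle myosin II genes on the list were measured, with a median of 0.00 in hemizygous and -0.03 in homozygous cells. None of the 14 shared the order of MYH14, which 2.36% of all genes had. Against wild-type, hemizygous libraries were higher without overlap in 1 of the 14 and lower in 2 (8.13% and 9.21% of all genes). MYH9 was at 693 and 763 CPM in hemizygous, 774 and 665 CPM in homozygous, and 595 and 859.8 CPM in wild-type libraries. MYH10 was at 622 and 517 CPM in hemizygous, 609.8 and 446 CPM in homozygous, and 524 and 545 CPM in wild-type libraries. Both overlapped between hemizygous and wild-type libraries. MYL9, a regulatory light chain, had 51.8 and 38.6 CPM in hemizygous, 40.5 and 33.8 CPM in homozygous, and 60.7 and 41.5 CPM in wild-type libraries. Coding sequence is related among the heavy chains, and how the authors counted reads that match several genes is not given in the sources used here.

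Markers of other cells were summed as well. Of 12 fibroblast and stromal markers 8 had rows, with 893 and 753 CPM in hemizygous, 667 and 718 CPM in homozygous, and 922 and 845 CPM in wild-type libraries. LUM and DCN had none. The homozygous sums were lowest, as for SORCS2, and 8 of 8 had a homozygous log2 fold change below 0. In 1 of the 8, against 4.58% of all genes, all mutant libraries were below wild-type. This was THY1, a surface glycoprotein, at 334 and 379 CPM in hemizygous, 333 and 394 CPM in homozygous, and 420.4 and 468 CPM in wild-type libraries. Of 12 neuroectoderm markers 7 had rows, with 594 and 494 CPM in hemizygous, 445 and 433 CPM in homozygous, and 522 and 474 CPM in wild-type libraries, and PAX6 and SOX1 had none. In 3 of the 7, and in 2 of the 12 pluripotent markers (TDGF1 and SALL4), all mutant libraries were above wild-type, against 4.29% of all genes. The neuroectoderm markers went both ways. Without overlap, 3 of the 7 were higher and 3 lower in homozygous than in wild-type libraries (14.2% and 13.6% of all genes). In hemizygous libraries 3 were higher and 1 lower than wild-type (8.13% and 9.21%). Between the mutants, 5 were lower in homozygous libraries (10.4%). ZIC1, a zinc finger transcription factor, was at 41.0 and 58.9 CPM in hemizygous, 28.2 and 28.0 CPM in homozygous, and 17.9 and 16.3 CPM in wild-type libraries. Its hemizygous libraries were the highest. DCX, a microtubule protein of young neurons, was at 5.58 and 5.58 CPM in hemizygous, 4.01 and 4.65 CPM in homozygous, and 3.28 and 3.30 CPM in wild-type libraries. FABP7, a fatty acid binding protein of neural progenitors, was at 4.22 and 5.81 CPM in hemizygous, 5.62 and 8.15 CPM in homozygous, and 2.99 and 2.99 CPM in wild-type libraries. The part of these marker lists in the values of the 5 genes was not tested.

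**Figure D5:**
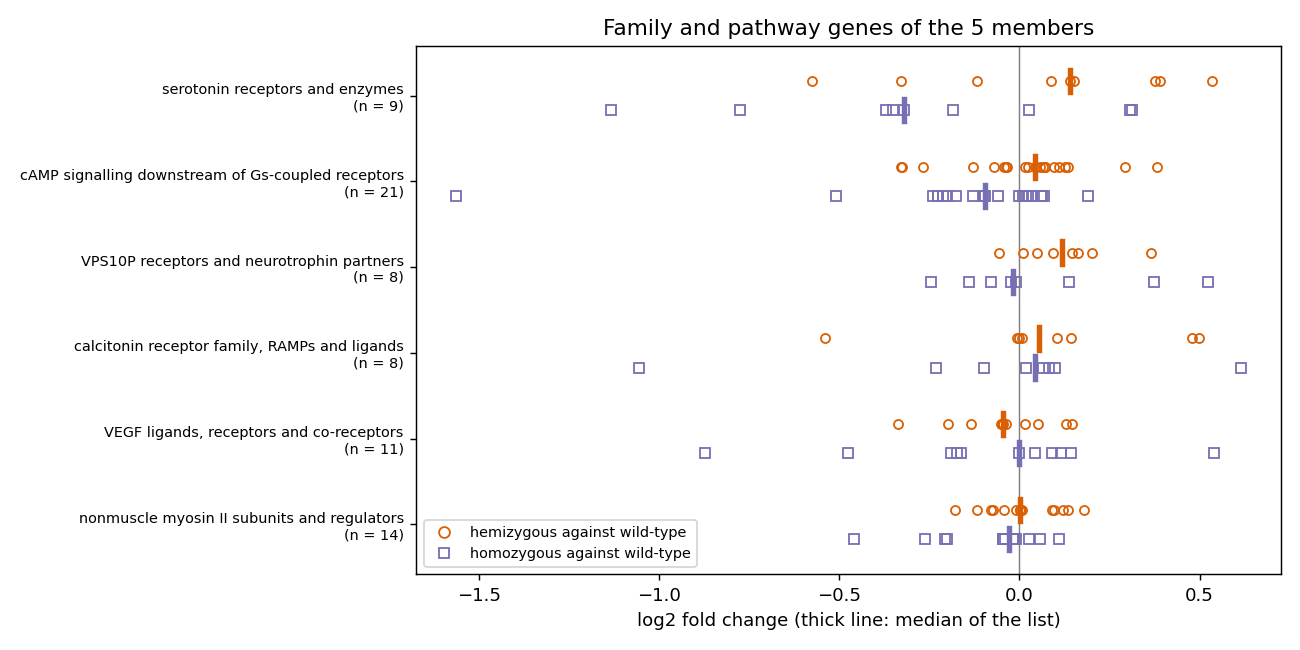
Log2 fold change against wild-type (x axis) of the measured genes on the 6 family and pathway lists (y axis), in hemizygous (circles) and homozygous (squares) cells; a thick line marks the median of each list. Medians lie between -0.05 and 0.14 in hemizygous and between -0.32 and 0.04 in homozygous cells.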

How the data were processed

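The authors deposited whole-number counts of reads per gene for 6 libraries, not normalized. Reads were placed on hg38, per the submitters' processing notes. Which aligner and counter were run, and whether strand or molecular identifiers were used, is not given in the sources used here. No row total is under 132, so the table leaves out rarer genes. Every column was matched to a sample by its description.

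All 16199 rows passed filterByExpr. Counts were compared in edgeR 4.0.16 (R 4.3.3) with TMM scaling, 1 mean per genotype across the 6 libraries, the quasi-likelihood F test and Benjamini-Hochberg adjustment over all rows. SEs are the log2 fold change over the root of F, CPM use TMM factors, log2 CPM a prior count of 2, and SDs are over 2 libraries. Poisson intervals cover counting error only. The script was tested on simulated counts.

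The 5 genes and the 11 gene lists were chosen with earlier results of these data known. Besides these 5, the named genes are the 3 nearest to each (1 near MYH14 is not reported here), DICER1, and family genes that define a list or did not overlap between groups. Neighbours were examined, and those named chosen, after values were seen. Positions and sequences come from RefSeq (GRCh38.p14). Proteins and untranslated regions were not analysed here. Other settings tried were 3 further scalings, 2 filters, DESeq2 1.42.0, limma-voom (limma 3.58.1), fits of 2 genotypes alone, a replicate block and leaving out single libraries.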

Additional observations from a re-analysis of the deposited data

Results flagged for a closer look

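Among the neighbours of MYH14, EMC10 and NAPSA had hemizygous libraries below both wild-type libraries and homozygous libraries above both. For EMC10 the log2 fold change between homozygous and hemizygous cells was 0.86, which edgeR did not call (adjusted p = 0.999) and DESeq2 did (adjusted p = 0.0181). NAPSA, an aspartic protease with 0.417 and 0.531 CPM in hemizygous, 1.06 and 1.5 CPM in homozygous, and 0.848 and 0.972 CPM in wild-type libraries, had 1.41, called by neither edgeR (adjusted p = 0.999) nor DESeq2 (adjusted p = 1.00).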

How the results depend on the processing

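The 0 called genes of edgeR were also 0 with RLE, upper-quartile and library-size scaling, with limma-voom and with only the groups compared. They were 0 with either filter too, but the filters gave the same values as the main fit and so add no check. DESeq2 called 7 for hemizygous against wild-type, 10 for homozygous against wild-type and 10 between the mutants. With a replicate block, edgeR called 1, 0 and 1 genes in these comparisons. The number marks no batch in the labels, although replicate differences correlated across genes at 0.77 between hemizygous and wild-type, 0.50 between hemizygous and homozygous and 0.38 between homozygous and wild-type. With a library left out, 0 to 2, 0 to 1 and 0 to 3 genes were called. For hemizygous against wild-type there was 1 without wild-type replicate 1 and 2 without either hemizygous library. For homozygous against wild-type there was 1 without wild-type replicate 1 or hemizygous replicate 1, and 3 were called between the mutants without hemizygous replicate 1. Over the left-out libraries HTR7 spanned -1.47 to -0.91 in hemizygous and -1.67 to -1.51 in homozygous cells. In homozygous cells SORCS2 spanned -1.70 to -1.20, CALCR 0.97 to 1.41 and KDR 0.43 to 0.53. In hemizygous cells SORCS2 spanned -0.84 to -0.34, CALCR 0.55 to 0.99, KDR 0.32 to 0.57 and MYH14 -1.03 to -0.65. Genes at an unadjusted p under 0.05 ranged over the left-out libraries from 97 to 264 for hemizygous against wild-type, 161 to 718 for homozygous against wild-type and 72 to 1348 between the mutants, and were 616, 1942 and 1328 with the replicate block. In the comparisons not named in the choice, 3 values turned sign. KDR between the mutants was -0.090 without hemizygous replicate 1 and -0.01 without homozygous replicate 1, and MYH14 in homozygous against wild-type cells was -0.11 without wild-type replicate 1. Over the left-out libraries these spanned -0.090 to 0.15 and -0.11 to 0.27. The share of MYH14 neighbours with low hemizygous libraries was 26.7% at 0.5 Mb and 8.87% at 2 Mb, both windows added after seeing the data. The nearest genes were the same 3 of 3 with library-size scaling. This could hardly come out otherwise, as scaling a library shifts both genes of a pair nearly alike. With a minimum of 5 CPM, 3 of 3 were shared for KDR, 2 for MYH14 and SORCS2 and 1 for HTR7 and CALCR.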

Other observations

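Beyond the end of the low run near MYH14 lies a cluster of kallikrein genes, which encode secreted serine proteases, and 8 of them were measured. KLK1, the first of these after CLEC11A, stood at 1.98 and 2.79 CPM in hemizygous, 2.00 and 2.88 CPM in homozygous, and 2.22 and 3.07 CPM in wild-type libraries, with all groups overlapping. KLK6 stood at 0.913 and 2.01 CPM in hemizygous, 1.28 and 2.02 CPM in homozygous, and 0.752 and 0.870 CPM in wild-type libraries, so that all mutant libraries were above wild-type. Its counts were 34 to 106 per library, and edgeR did not call it (adjusted p = 1.00 in both comparisons with wild-type). All mutant libraries were above wild-type in 2 of the 59 neighbours of MYH14 (3.39%), against 4.29% of all genes. KLK10 stood at 6.94 and 8.27 CPM in hemizygous, 6.72 and 7.16 CPM in homozygous, and 5.46 and 7.91 CPM in wild-type libraries.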
